A study of Sus scrofa with 48 samples.

Results

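MHC class I molecules show peptides from inside the cell to cytotoxic T cells. In the pig the heavy chains are encoded by the swine leukocyte antigen (SLA) genes, of which SLA-1, SLA-2 and SLA-3 are the classical, highly polymorphic ones and SLA-6, SLA-7 and SLA-8 the non-classical ones. The heavy chain pairs with beta-2-microglobulin (B2M), TAP1 and TAP2 carry peptides into the endoplasmic reticulum, and tapasin (TAPBP) holds the empty heavy chain next to that transporter. The classical heavy chain genes, B2M, TAP1, TAP2 and TAPBP are used by white blood cells and are induced by interferons.

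The probes described here are the spots of a porcine Agilent array whose gene name was one of those 10 genes and that the study kept for its statistics. They were 40 of 37113 retained spots and covered 9 of the 10 genes, since no retained spot carried the name SLA-2. SLA-1 had 7 probes, SLA-3 had 8, SLA-6 had 2, SLA-7 had 1, SLA-8 had 4, B2M had 9, TAP1 had 3, TAP2 had 5 and TAPBP had 1. Each probe is a single-stranded DNA of 60 bases, and each was analysed on its own because a pig whose allele differs from the probe can give a lower signal with the same amount of RNA. Allele sequence and RNA level therefore cannot be told apart from the signal of 1 SLA probe.

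The samples were whole blood collected at slaughter, at an age of 132 days, from 48 purebred French Large White castrates. They came from generation 8 of a divergent selection on residual feed intake (RFI), the part of feed intake not explained by growth and maintenance. The lines selected for low RFI (coded RFIneg) and for high RFI (coded RFIpl) each gave 24 pigs, of which 12 ate a low-fat, low-fiber (LF) diet and 12 a high-fat, high-fiber (HF) diet, both without restriction from 74 days of age. There was 1 line per direction of selection, so that selection and drift cannot be told apart, and whole blood cannot tell fewer cells of a type from less RNA per cell. Each pig had 1 array, and the 48 arrays lay on 6 slides with 2 pigs of each group on every slide. Values are log2 median spot intensities centred on the array median. They are comparable between pigs for a probe, not between probes.

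Median spot intensity was 5.91 to 15.97 times the local background, no spot was saturated, and 39 of the 40 probes were well above background on all 48 arrays. The exception, A_72_P260597 of SLA-6, was well above background on 47 arrays. Defining genes of blood cells were measured, since each of the 10 erythroid, 9 T cell and 6 B cell marker names with a retained spot, beta-globin (HBB) among them, had a probe well above background on every array. The line effect was called at an adjusted P-value under 0.05 for 1027 of all retained spots, that is 2.77%, and the median line difference of all spots was 0.02.

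Several SLA probes overlap, and the sequences below show the places where probes of nearly the same stretch differ. They are printed 5′ to 3′ as given in the scanner files, and the files used here give no genome position for them. A_72_P124686 and A_72_P035616, both named SLA-1, share 41 matching bases. The capitals mark the 2 mismatches (A23G and T42A, counted from the first base of A_72_P035616) within 30 bases of each.

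A_72_P124686 (bases 1 to 30): gggatGataaatgagagatttcctAagttt
A_72_P035616 (bases 18 to 47): gggatAataaatgagagatttcctTagttt

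CUST_366_PI427286967, called CUST_366 below, is another SLA-1 probe over the same stretch. It shares 47 matching bases with A_72_P124686, has 1 mismatch (T13A from the first base of CUST_366), and carries 7 further bases, shown in capitals.

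A_72_P124686 (bases 41 to 60): ataaatggaaggaccttcca
CUST_366 (bases 29 to 55): ataaatggaaggATTGAGAaccttcca

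A_72_P440391 of SLA-1 and A_72_P440386 of SLA-3 match at 55 of 59 overlapping bases. The 4 mismatches in capitals are G7C, G18T, G19A and C39G, counted from the first base of A_72_P440391.

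A_72_P440391: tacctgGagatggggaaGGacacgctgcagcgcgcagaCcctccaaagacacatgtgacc
A_72_P440386: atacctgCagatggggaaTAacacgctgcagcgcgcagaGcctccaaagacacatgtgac

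CUST_174_PI427286967 (CUST_174) of SLA-1 and A_72_P649741 of SLA-3 match at 46 bases with 7 mismatches, of which 6 lie in the 30 bases shown in capitals where they differ.

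CUST_174 (bases 16 to 45): cAgcAtTtgaaTgTgtctgtgtCcctatga
A_72_P649741 (bases 9 to 38): cTgcCtCtgaaAgGgtctgtgtTcctatga

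A_72_P625308 and A_72_P682906 of SLA-3 share 42 identical bases and differ only in which side they extend to. The capitals here mark the first and last 12 of the shared bases.

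A_72_P682906 (bases 1 to 30): ggcaatggaccatctccaTCCTTATGCTAA
A_72_P625308 (bases 31 to 60): TGACTGCGGGGAgccgaggaaacacaggag

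The other probes with a line difference, A_72_P517623 of SLA-3 and A_72_P070231 of SLA-8, are shown whole because no other member probe overlaps them with 30 or more matching bases.

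A_72_P517623: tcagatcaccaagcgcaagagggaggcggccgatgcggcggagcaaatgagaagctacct
A_72_P070231: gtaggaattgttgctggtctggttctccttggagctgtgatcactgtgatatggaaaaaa

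The first question was whether class I genes differed between RFI lines. Heavy chain probes did, in both directions, while B2M, TAP1, TAP2 and TAPBP probes did not pass the test. In limma with Benjamini-Hochberg adjustment over all retained spots, 8 of the 40 probes were called, against 2.77% of all spots. All 8 were SLA probes: 3 of 7 for SLA-1, 4 of 8 for SLA-3 and 1 of 4 for SLA-8. Of these, 6 were lower in low RFI pigs, where 1.44% of all spots were, and 2 were higher, where 1.32% of all spots were. With the criterion of the study's methods, a P-value under 0.01 and a fold change (FC) above 1.1, the count was 11 of 40 against 5.78% of all spots. The median line difference over the 22 SLA probes was -0.17, and over the 18 B2M, TAP1, TAP2 and TAPBP probes it was -0.04.

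**Figure D1:**
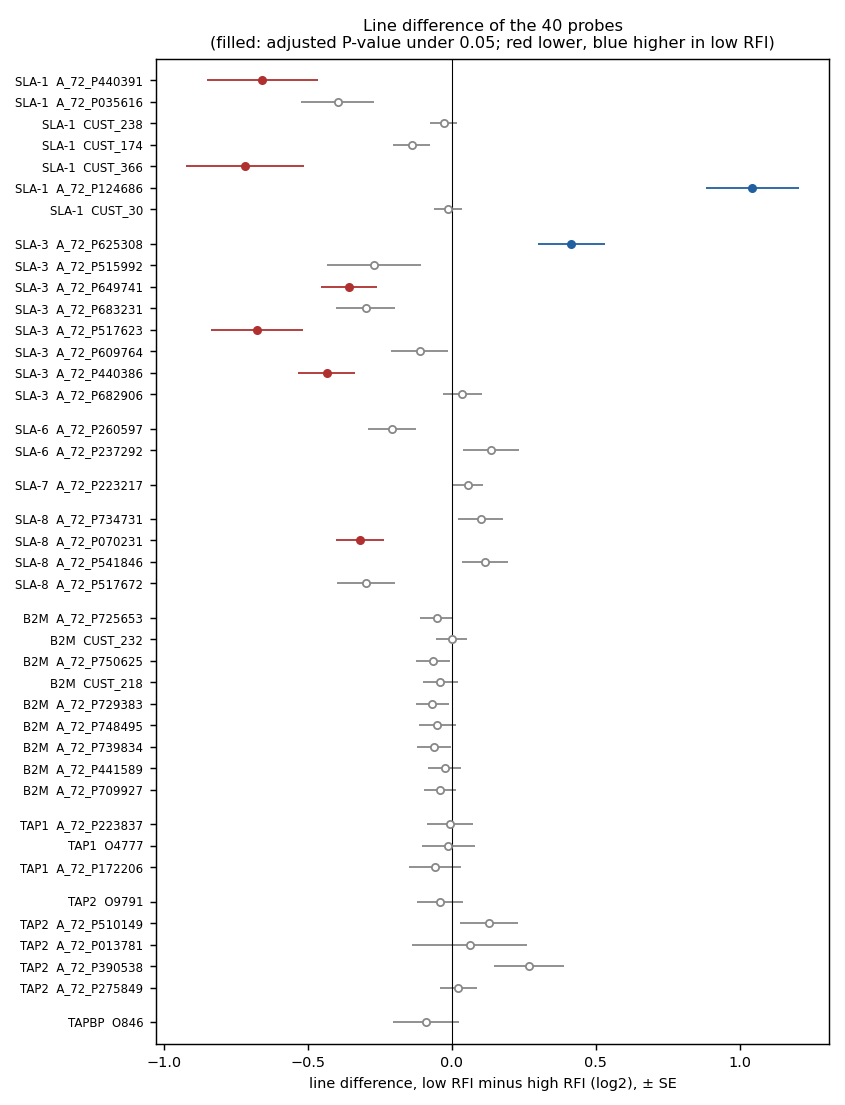
Line difference (low RFI minus high RFI, log2) of each of the 40 probes with its standard error, grouped by gene, over 48 pigs. The 8 filled points passed an adjusted P-value of 0.05 and all belong to SLA-1, SLA-3 or SLA-8, with differences from -0.72 to 1.04, whereas the 9 B2M points lie between -0.07 and 0.00.

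The largest line difference was that of A_72_P124686. In low RFI pigs its level was 4.48 at the lowest, 5.65 at the median and 6.12 at the highest under the LF diet, and 4.97, 5.39 and 6.35 under the HF diet. In high RFI pigs it was 3.48, 4.61 and 5.91 under LF, and 3.54, 4.33 and 5.43 under HF. The lines overlapped, but each of the 24 low RFI pigs was above the median of the high RFI pigs. The line difference was 1.04 ± 0.16 (SE, n = 24 per line), a FC of 2.06, with an adjusted P-value of 2.59e-05 in limma. It was 1.01 under LF and 1.08 under HF, and it was positive on all 6 slides, from 0.51 to 1.96.

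The overlapping SLA-1 probe CUST_366 went the other way. Its lowest, median and highest levels were 5.80, 7.05 and 8.28 in low RFI pigs on LF and 5.72, 7.12 and 8.14 on HF. They were 7.45, 7.95 and 8.61 in high RFI pigs on LF and 6.44, 7.89 and 8.62 on HF. Low RFI pigs thus reached nearly as high as high RFI pigs but extended further down, and 18 of 24 were below the high RFI median. The difference was -0.72 ± 0.20 (FC -1.64, adjusted P-value 0.0409 in limma), negative on all 6 slides, at -0.07 on slide 1 and -0.06 on slide 6. Without replicate 7 of the low RFI pigs on LF, whose value is given below for A_72_P440391, the CUST_366 difference was -0.68 with an adjusted P-value of 0.0617. The call was also lost in an analysis of variance (0.0570), with all non-control spots tested (0.0570) and with the column of the rebuilt pig as deposited (0.817). The other probe of this stretch, A_72_P035616, had a difference of -0.40 ± 0.13 that did not pass the adjusted threshold (0.0797), but was called with slide as a block, with the replicate block and with normexp and quantile normalisation.

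The gap between the overlapping probes was tested pig by pig. The line difference of A_72_P035616 minus that of A_72_P124686 was -1.44 ± 0.23, and that of CUST_366 minus that of A_72_P124686 was -1.76 ± 0.29. Both had a permutation P-value of 1e-05, the smallest that 100000 permutations of line within diet can give (adjusted P-value 5.5e-05 over 11 overlapping pairs, two-sided). Over 48 pigs, with group means removed, A_72_P035616 and A_72_P124686 had r = -0.21 (permutation P-value 0.15, adjusted 0.194 over 11 pairs) and rho = -0.20 (permutation P-value 0.179, adjusted 0.219), with r = -0.20 without the 2 farthest pigs and -0.51 to -0.07 within slides. The line differences of A_72_P035616 and CUST_366 differed by 0.32 ± 0.12 (permutation P-value 0.0113, adjusted 0.0249), and over pigs the pair had r = 0.84 and rho = 0.89 (both permutation P-values 1e-05, adjusted 1.37e-05), with r = 0.84 without the 2 farthest pigs and 0.76 to 0.94 within slides. CUST_366 and A_72_P124686 had r = -0.15 (permutation P-value 0.302, adjusted 0.316) and rho = -0.13 (permutation P-value 0.372, adjusted 0.372), with r = -0.19 without the 2 farthest pigs and -0.47 to 0.28 within slides.

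**Figure D2:**
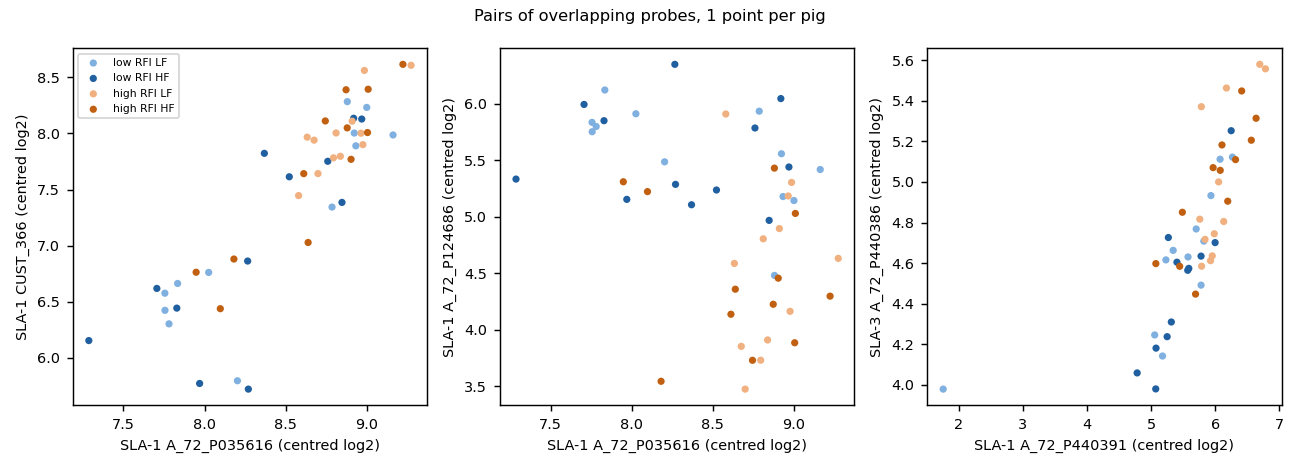
Level of 1 probe against that of an overlapping probe, 1 point per pig, on the centred log2 scale, coloured by line and diet. CUST_366 and A_72_P035616 rise together, A_72_P124686 covers 3.48 to 6.35 with no such relation to A_72_P035616, and in another panel 1 low RFI pig lies far to the left of the others at 1.76.

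A_72_P440391 of SLA-1 was lower in low RFI pigs. Its lowest, median and highest levels were 1.76, 5.64 and 6.27 in low RFI pigs on LF and 4.78, 5.36 and 6.25 on HF, against 5.76, 5.97 and 6.78 in high RFI pigs on LF and 5.07, 6.09 and 6.64 on HF. A single pig, replicate 7 of the low RFI pigs on LF, held the lowest value, and the next lowest pig of any group was at 4.78. The difference was -0.66 ± 0.19 (FC -1.58, adjusted P-value 0.0477 in limma), and without that pig it was -0.50 with an adjusted P-value of 0.00853. The call was lost in an analysis of variance (0.0641), with all non-control spots tested (0.0668), with the rebuilt pig left out (0.0572) and with its column as deposited (0.638). The same pig was also the lowest of the 48 for A_72_P440386, at 3.98.

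The SLA-3 probe with nearly the same sequence, A_72_P440386, moved in the same direction. Its lowest, median and highest levels were 3.98, 4.65 and 5.12 in low RFI pigs on LF and 3.98, 4.57 and 5.25 on HF. In high RFI pigs they were 4.59, 4.81 and 5.58 on LF and 4.45, 5.06 and 5.45 on HF. The groups overlapped, and 21 of 24 low RFI pigs were below the high RFI median. The difference was -0.43 ± 0.10 (FC -1.35, adjusted P-value 0.00666 in limma, and 0.507 with the column of the rebuilt pig as deposited). It did not differ detectably from that of A_72_P440391 (gap -0.22 ± 0.15, permutation P-value 0.104, adjusted 0.163). Over 48 pigs, with group means removed, the pair correlated with r = 0.69 and rho = 0.81 (both permutation P-values 1e-05, adjusted 1.37e-05 over 11 pairs), with r = 0.77 without the 2 farthest pigs and 0.59 to 0.97 within slides.

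A_72_P517623 of SLA-3 had the widest spread of the SLA-3 probes that were called. Its lowest, median and highest levels were 1.74, 2.59 and 3.76 in low RFI pigs on LF and 1.34, 2.32 and 3.87 on HF, against 2.49, 3.19 and 4.23 in high RFI pigs on LF and 2.52, 2.95 and 3.73 on HF. The lines overlapped, with no high RFI pig under 2.49 and 19 of 24 low RFI pigs below the high RFI median. The difference was -0.68 ± 0.16 (FC -1.60, adjusted P-value 0.00865 in limma).

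A_72_P649741 of SLA-3 ranged from 7.01 to 8.27 with a median of 7.69 in low RFI pigs, and from 7.37 to 8.60 with a median of 8.11 in high RFI pigs. Its difference was -0.36 ± 0.10 (FC -1.28, adjusted P-value 0.0297 in limma, and 0.826 with the column of the rebuilt pig as deposited). The overlapping SLA-1 probe CUST_174 had a smaller difference of -0.14 ± 0.06 that was not called (adjusted P-value 0.343), and the gap between them was 0.22 ± 0.06 (permutation P-value 0.00061, adjusted 0.00224). The 2 probes correlated over pigs with r = 0.83 and rho = 0.82 (both permutation P-values 1e-05, adjusted 1.37e-05), with r = 0.81 without the 2 farthest pigs and 0.70 to 0.92 within slides.

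A_72_P625308 of SLA-3 was higher in low RFI pigs, from 6.16 to 7.33 with a median of 6.69, against 4.89 to 6.92 with a median of 6.32 in high RFI pigs. The difference was 0.42 ± 0.12 (FC 1.33, adjusted P-value 0.0352 in limma), and 20 of 24 low RFI pigs were above the high RFI median. The call was lost with the rebuilt pig left out (0.39, adjusted P-value 0.0547), with its column as deposited (0.267) and with all non-control spots tested (0.0508). Its partner with 42 identical bases, A_72_P682906, ran from 7.77 to 8.73 with a median of 8.27 in low RFI pigs and from 7.84 to 8.64 with a median of 8.21 in high RFI pigs. Its difference was 0.04 ± 0.07 (adjusted P-value 0.960), and the gap of 0.38 ± 0.13 had a permutation P-value of 0.00417 (adjusted 0.0115). Their r over pigs was 0.17 (permutation P-value 0.243, adjusted 0.267) and rho 0.18 (permutation P-value 0.215, adjusted 0.249), with r = 0.11 without the 2 farthest pigs and -0.25 to 0.80 within slides.

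SLA-8, a non-classical heavy chain, was lower in low RFI pigs by A_72_P070231. That probe ran from 4.21 to 5.58 with a median of 4.92 in low RFI pigs and from 4.95 to 5.62 with a median of 5.24 in high RFI pigs. The difference was -0.32 ± 0.08 (FC -1.25, adjusted P-value 0.0180 in limma, and 0.817 with the column of the rebuilt pig as deposited). The probes of SLA-8 did not move as one: A_72_P517672 was at -0.30 ± 0.10 (adjusted P-value 0.109), and A_72_P734731 and A_72_P541846, which match at 57 bases, were at 0.10 ± 0.08 and 0.12 ± 0.08.

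**Figure D3:**
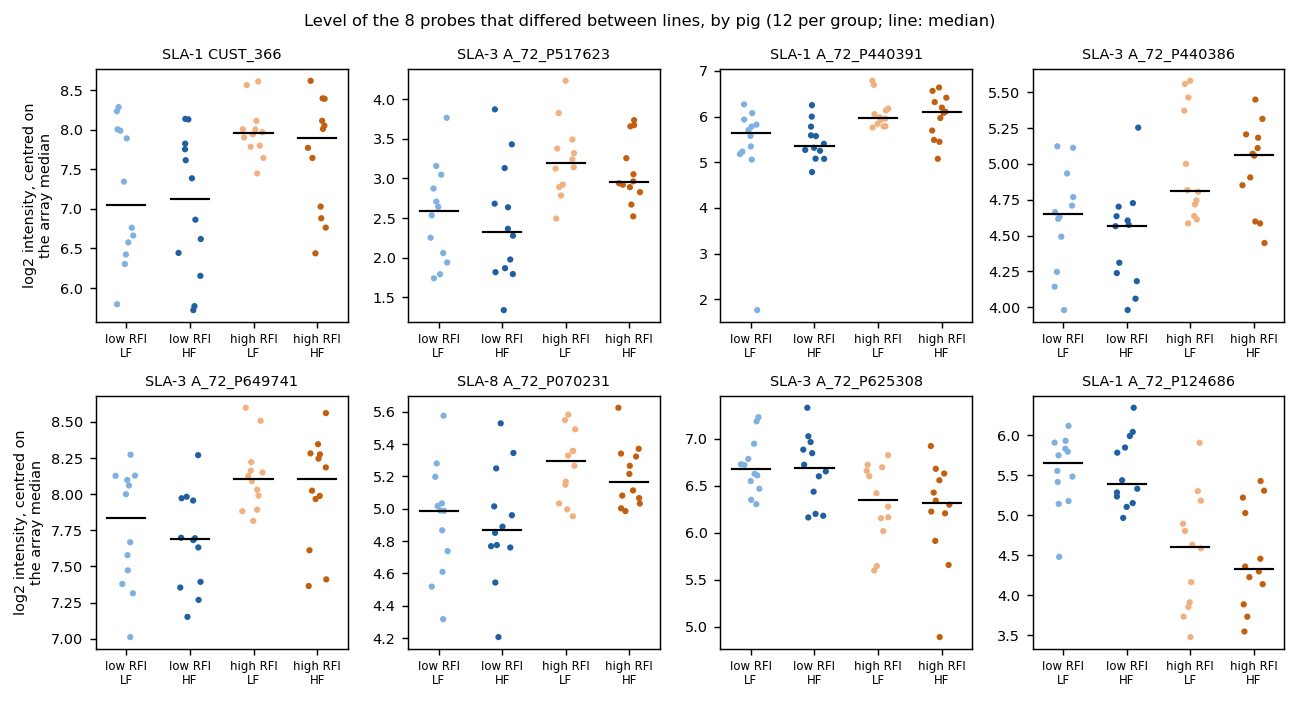
Level of the 8 probes called between lines, 1 point per pig and 12 pigs per group, with the group median as a line, on the centred log2 scale. The lines overlap in every panel, the median of both low RFI groups is below that of both high RFI groups in 6 panels and above it for A_72_P625308 and A_72_P124686, and 1 pig stands apart at 1.76 for A_72_P440391.

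Of the other heavy chain probes, 3 met the criterion of the methods without being called after adjustment. They were A_72_P035616 of SLA-1 and A_72_P517672 of SLA-8, given above, and A_72_P683231 of SLA-3 at -0.30 ± 0.10 (adjusted P-value 0.120 in limma), with 19 of 24 low RFI pigs below the high RFI median. The remaining probes met neither threshold. The brightest SLA-1 probe, CUST_30_PI427286967, ran from 9.25 to 9.89 in low RFI pigs and from 9.22 to 9.93 in high RFI pigs with a median of 9.44 in each. Its difference was -0.01 ± 0.05 (adjusted P-value 0.977), and CUST_238_PI427286967, which matches it at 57 bases with 1 mismatch, was at -0.03 ± 0.05. A_72_P260597 of SLA-6 ran from -2.70 to -1.92 with a median of -2.29 in low RFI pigs and from -2.96 to -1.34 with a median of -2.19 in high RFI pigs, a difference of -0.21 ± 0.08 (adjusted P-value 0.230). The other SLA-6 probe, A_72_P237292, ran from 1.67 to 2.53 with a median of 2.005 in low RFI pigs and from 0.80 to 2.54 with a median of 1.98 in high RFI pigs, and its difference had the opposite sign at 0.14 ± 0.10 (0.707). The SLA-7 probe A_72_P223217 ran from -2.68 to -1.95 with a median of -2.30 in low RFI pigs and from -2.73 to -1.996 with a median of -2.36 in high RFI pigs, a difference of 0.06 ± 0.05 (0.852). The lines overlapped for each of these probes.

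B2M, the light chain shared by all class I heavy chains, had 9 probes and none was called. The brightest, CUST_232_PI427286967, ran from 8.22 to 8.94 with a median of 8.61 in low RFI pigs and from 8.23 to 9.08 with a median of 8.60 in high RFI pigs, a difference of 0.00 ± 0.05 (adjusted P-value 0.998). The 9 line differences lay between -0.07 and 0.00 with a median of -0.05, and their SEs were 0.05 to 0.06. The probe with the lowest P-value, A_72_P729383, ran from 6.83 to 7.51 with a median of 7.13 in low RFI pigs and from 6.97 to 7.58 with a median of 7.22 in high RFI pigs, a difference of -0.07 ± 0.06 (adjusted P-value 0.816). The lines overlapped for both.

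No probe of the peptide transporter genes or of TAPBP was called. TAP1 by its brightest probe, O4777, ran from 5.80 to 7.01 with a median of 6.39 in low RFI pigs and from 5.55 to 6.94 with a median of 6.43 in high RFI pigs, a difference of -0.01 ± 0.09 (adjusted P-value 0.989 in limma). A_72_P172206 of TAP1 ran from -1.22 to -0.42 with a median of -0.91 in low RFI pigs and from -1.24 to -0.08 with a median of -0.82 in high RFI pigs, a difference of -0.06 ± 0.09 (0.948). The 3 TAP1 differences lay between -0.06 and -0.01.

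TAP2 differences lay between -0.04 and 0.27. A_72_P013781, its brightest probe, ran from 5.45 to 8.04 with a median of 6.997 in low RFI pigs and from 5.22 to 7.76 with a median of 7.05 in high RFI pigs, a difference of 0.06 ± 0.20 (adjusted P-value 0.972 in limma). A_72_P390538 ran from 0.92 to 2.65 with a median of 1.76 in low RFI pigs and from 0.58 to 2.34 with a median of 1.42 in high RFI pigs, and its difference was the largest at 0.27 ± 0.12 (0.331). The lines overlapped for both. TAPBP by its only probe, O846, ran from 2.50 to 4.07 in low RFI pigs and from 2.90 to 4.39 in high RFI pigs, with medians of 3.499 and 3.56 and a difference of -0.09 ± 0.12 (0.925).

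The line differences were checked on each slide, which held 4 pigs of each line. Of the 8 called probes, 6 kept their sign on all 6 slides. A_72_P649741 was at 0.01 on slide 1, and A_72_P070231 at 0.13 on slide 2. CUST_366 ranged from -1.61 to -0.06 and A_72_P517623 from -0.97 to -0.03.

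**Figure D4:**
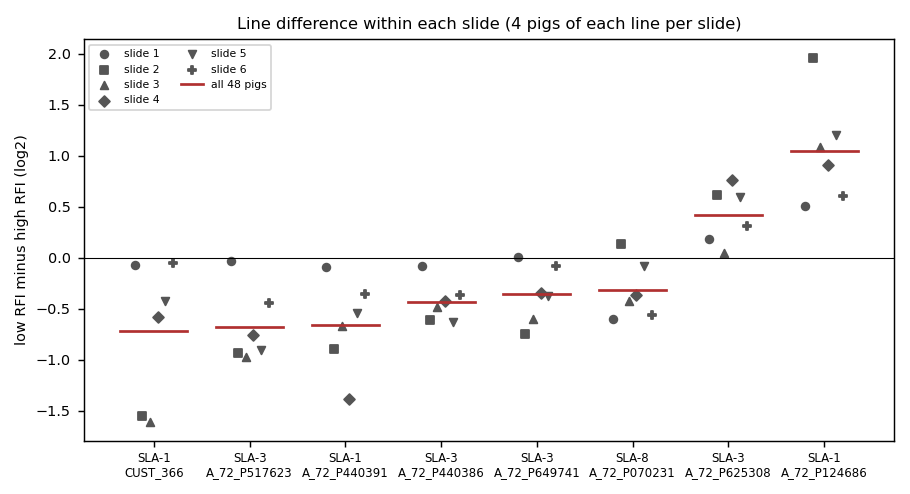
Line difference (low RFI minus high RFI, log2) within each of the 6 slides for the 8 called probes, with the difference over all 48 pigs as a red line. A_72_P124686 lies between 0.51 and 1.96 on every slide, and 6 of the 8 probes stay on 1 side of 0.

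Other spots of the array carry nearly the sequence of a member probe under another name, and they were looked up after the results were known. A spot with 58 bases identical to CUST_366 and no gene symbol had a line difference of -0.83 (adjusted P-value 0.0444 in limma), and A_72_P196972, named LOC100514058, with 55 matching bases and 1 mismatch, was at -0.61 (0.0262), against -0.72 for CUST_366. The spot without a symbol also matched A_72_P124686 at 45 bases (1 mismatch, 7 gap bases, r = -0.14 over 48 pigs). A_72_P196972 matched it at 44 bases (7 gap bases, r = -0.02), whereas A_72_P124686 itself was at 1.04. A spot identical to A_72_P517672 of SLA-8 was at -0.25 against -0.30. Spots identical to the B2M probes CUST_232_PI427286967 and A_72_P441589 were at 0.00 and 0.01. These spots were hybridised with the same RNA, so that they repeat the measurement and not the pigs.

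The second question was the diet. No class I or peptide loading probe passed the test for diet: 0 of 40 were called in limma, where 0% of all spots were, and 0 of 40 in an analysis of variance. Without adjustment, a P-value under 0.05 was reached by 0 of 40, where 1.64% of all spots passed, and by the criterion of the methods 0 of 40, where 0.245% did. The largest difference between HF and LF was -0.23 for CUST_366 (P-value 0.267), and the lowest P-value was 0.187 for O9791 of TAP2 at -0.11 ± 0.08. For B2M the 9 diet differences lay between -0.05 and 0.00, and for TAP1 the 3 lay between -0.06 and -0.02.

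The line difference did not depend detectably on diet. The interaction was called for 0 of 40 probes in limma, where 0% of all spots were, and for 0 of 40 in an analysis of variance. Without adjustment, a P-value under 0.05 was reached by 0 of 40, where 2.28% of all spots passed, and by the criterion of the methods 0 of 40, where 0.264% did. The lowest P-value was 0.188 for A_72_P013781 of TAP2, whose line difference was 0.33 on LF and -0.20 on HF. Among the 8 probes called for line, the difference had the same sign under both diets, the farthest apart being A_72_P440391 at -0.76 on LF and -0.55 on HF.

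The third question was how the probes varied among pigs of a group. The within-group SD was 0.18 to 0.22 for the 9 B2M probes, 0.28 to 0.32 for the 3 TAP1 probes and 0.16 to 0.74 for the 7 SLA-1 probes, against a median of 0.26 over all retained spots. CUST_366 (0.74), A_72_P440391 (0.69) and A_72_P124686 (0.58) of SLA-1, A_72_P515992 (0.59) and A_72_P517623 (0.57) of SLA-3 and A_72_P013781 (0.72) of TAP2 were the 6 most variable, between the 93.3rd and 97.2nd percentiles of all spots, and the next was A_72_P035616 at 0.45 (85.7). The place of A_72_P440391 rested on the pig at 1.76, without which its SD was 0.41 (percentile 82.1). CUST_30_PI427286967 and CUST_238_PI427286967, also named SLA-1, were at 0.16 each, at percentiles 3.47 and 3.44. The probes of SLA-1 thus ranged from among the least to among the most variable spots of the array.

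The spread of pigs around their group median was then compared between lines. In limma 0 of 40 probes were called, where 0.0323% of all spots were, and 4 of 40 had an unadjusted P-value under 0.05, where 3.84% of all spots did. A_72_P035616 deviated from the group median by 0.47 on average in low RFI pigs and by 0.23 in high RFI pigs (P-value 0.000355, adjusted 0.328 in limma). CUST_366 deviated by 0.77 and 0.41 (adjusted 0.434), A_72_P517623 by 0.54 and 0.32 (adjusted 0.999), and A_72_P260597 of SLA-6 by 0.15 and 0.28 (adjusted 0.999).

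Over pigs, with group means removed, B2M probes followed each other more closely than SLA-1 probes did by the median r. The correlations below are descriptions over 48 pigs, and probes of 1 array share its RNA, labelling and scaling. The median r between B2M probes was 0.76 over 36 pairs, with a lowest value of 0.48, and between TAP1 probes it was 0.65 over 3 pairs. Between SLA-3 probes it was 0.68 over 28 pairs and between SLA-8 probes 0.77 over 6 pairs. Between SLA-1 probes it was 0.40 over 21 pairs, from -0.21 to 0.84, and the 3 pairs below 0 all held A_72_P124686. A_72_P124686 was closer to the 4 SLA-8 probes, with r from 0.46 to 0.70, than to the overlapping SLA-1 probes A_72_P035616 (-0.21) and CUST_366 (-0.15). This was not particular to SLA-8, since its r was 0.35 to 0.56 with B2M probes and 0.52 with A_72_P625308 of SLA-3. With the SLA-1 probes CUST_238_PI427286967 and CUST_30_PI427286967 it was 0.40 and 0.41. The SLA-7 probe A_72_P223217 ran against B2M, down to -0.58 with A_72_P729383.

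TAP2 held a probe that stood apart. A_72_P013781 had r from -0.35 to 0.05 with the other 4 TAP2 probes, which had r from 0.53 to 0.84 among themselves, and its r with the 3 TAP1 probes ran from -0.64 to -0.40. TAP1 and B2M probes had a median r of 0.63 over 27 pairs.

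**Figure D5:**
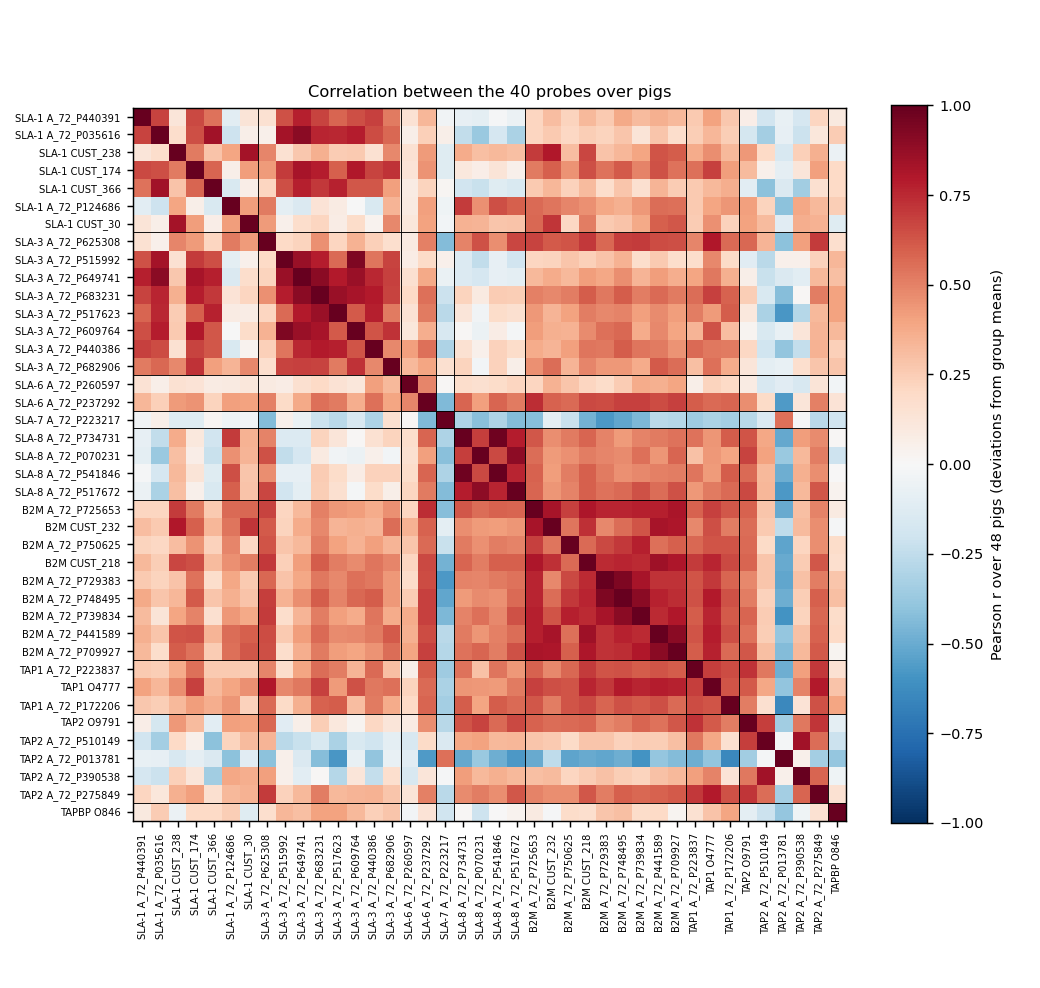
Pearson r between the 40 probes over 48 pigs, computed on deviations from group means, with black lines between genes. B2M probes form a block with r of 0.48 or more, the SLA-1 probes range from -0.21 to 0.84, and A_72_P013781 of TAP2 is the probe with the most negative values, down to -0.64 with TAP1.

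The named genes whose pattern over the 48 pigs was most like that of TAP1 (mean of its 3 probes, 9323 gene names compared) were RNF114 with r = 0.85, RIPK3 with 0.83, PSMB9 with 0.82, CNDP2 with 0.81 and IRF1 with 0.81. PSMB9 is a subunit of the immunoproteasome, and IRF1 is an interferon-induced transcription factor. For B2M (mean of 9 probes) they were GM4250 with 0.90, OSTF1 with 0.89, TRAPPC4 with 0.89, CD53 with 0.89 and C19ORF6 with 0.88. CD53 is a tetraspanin of white blood cells. None of these 10 genes had a probe called for line.

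Other genes of the pathway were mostly not called between lines. Of the peptide supply genes (proteasome subunits, activators and trimming peptidases), 6 of 7 names had spots and 2 of 15 probes were called, where 2.77% of all spots were, both lower and both of PSMB8, an immunoproteasome subunit encoded beside TAP1. PSMB8 was at -0.45 ± 0.13 for A_72_P564399 (FC -1.36, adjusted P-value 0.0465 in limma) and -0.42 ± 0.12 for A_72_P088176 (FC -1.34, 0.0348), and its other probe, A_72_P444948, was at -0.40 ± 0.13 (0.0915). At an unadjusted P-value under 0.05 the list had 3 of 15. The PSMB9 probes were at -0.12 and -0.10.

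Among the folding chaperones of the endoplasmic reticulum 0 of 11 probes were called, with a median of 0.07. Among the regulators of class I transcription 0 of 30 were called, with a median of -0.05. Among interferon-stimulated genes 0 of 51 were called, with a median of -0.14 against 0.02 for all spots, and the nearest was BST2, an antiviral membrane protein, at -0.31 ± 0.09 (adjusted P-value 0.0515 in limma). At an unadjusted P-value under 0.05 the counts were 0 of 11, 8 of 30 and 5 of 51, where 12% of all spots passed. For diet, 0 probes of these lists and of the peptide supply list were called. Without adjustment, 1 of 15 peptide supply, 1 of 11 folding, 0 of 30 regulator and 0 of 51 interferon-stimulated probes had a P-value under 0.05, where 1.64% of all spots did.

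Markers of blood cell types also differed between lines, and their part in the SLA results was not tested. In cell counts of these pigs, the study found no line difference in total white blood cells, lymphocytes, monocytes or neutrophils. It found more red blood cells in low RFI pigs, and it did not count B cells and T cells apart. Of the B cell markers (12 probes, among them those of MS4A1, CD79A, BLNK and CD40) 7 were called, all lower in low RFI pigs, and all 12 had a negative difference, with a median of -0.26. The mean level of that list ranged from 1.95 to 2.89 in low RFI pigs on LF, 2.07 to 3.19 on HF, and from 2.64 to 2.93 and 2.46 to 2.95 in high RFI pigs on LF and HF. The share of all spots called was 2.77%. Monocyte markers had 2 of 22 probes called, both of CD14 and both lower, with 20 of 22 differences negative, and neutrophil markers had 1 of 9 called, CXCR2, lower, with 5 of 9 differences negative. T cell markers had 1 of 22 called, LCK, higher, with 1 of 22 differences negative and a median of 0.15. Erythroid markers had 1 of 18 called, A_72_P070746 of SLC4A1, higher at 0.59, while the other SLC4A1 probe, O801, was at -0.08 (adjusted P-value 0.922 in limma), and 2 of 18 differences were negative. NK and cytotoxic markers had 0 of 10 and platelet markers 0 of 10 called. At an unadjusted P-value under 0.05, where 12% of all spots passed, there were 9 of 12 B cell, 3 of 22 monocyte, 2 of 9 neutrophil, 7 of 22 T cell, 3 of 18 erythroid, 3 of 10 NK and cytotoxic and 2 of 10 platelet probes. Each marker name with a retained spot had a probe well above background on all 48 arrays.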

How the data were processed

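Total RNA from whole blood of 48 pigs (2 lines, 2 diets, 12 pigs per group) was labelled with Cy3 and hybridised to a 60306-probe porcine Agilent array, 1 pig per array. Per the file headers, the scanner files hold a median spot intensity and a local background intensity from Agilent Feature Extraction. The authors deposited log2 values for 37113 spots that passed their filters on background, diameter, saturation and uniformity, centred on the median of each array, with R 3.0.2 per the submitters' processing notes. Replicates were not pooled. Some genes are not reported here. The deposited column of 1 pig (high RFI, HF, replicate 1) did not match its scanner file, and its values were rebuilt from that file by the same steps. For the other 47 arrays the rebuilt and deposited log2 values were equal within 1e-06.

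Line, diet and interaction (sum-to-zero coding) were fitted to every retained spot over all 48 pigs with limma 3.58.1 (lmFit, eBayes) in R 4.3.3, with Benjamini-Hochberg adjustment over all 37113 spots and a threshold of 0.05. Line differences are low RFI minus high RFI, diet differences HF minus LF, and a ratio under 1 is given as minus its inverse. Spread was tested in the same way on absolute deviations from the group median. Overlapping probes were aligned with Biopython 1.88 and compared by permutation (100000 draws, two-sided). Values are given in full for the brightest probe of each gene, its probe with the lowest line P-value, and every probe called. Genes like TAP1 and B2M are the 5 with the highest r. Members, gene lists and tests were chosen with earlier results of these data known. Probe number and arrays, not sequencing depth, limit the precision. Alternatives were the signal, scaling, spot filter, block, prior, test and threshold, and the handling of the rebuilt column.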

Additional observations from a re-analysis of the deposited data

How the results depend on the processing

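Diet, interaction and spread had 0 of 40 probes called under the 13 alternative fits. For line, 8 probes were called, 5 when all non-control spots were tested, and 2 with the column as deposited, A_72_P124686 and A_72_P517623, which were also the only ones called under all 13. The other fits called 6 to 9 and the methods' criterion 11. With the replicate block 9 were called, the 8 among them and A_72_P035616. Pigs of 1 replicate number share a slide, and their deviations had a median r of 0.20, above 0.1 in 44 of 72 pairs. Pigs of the same slide with another number had a median r of 0.09 (33 of 72 pairs above 0.1). Between slides the median was -0.04 (268 of 720), and 22 of 48 pigs correlated best with their own number. The labels do not say what the number means, and the main fit did not include it. A pairing by number is therefore possible, and the replicate block is the fit that allows for it. Spots of 1 probe could not be averaged, since no probe name was repeated.

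CUST_30_PI427286967 (0.26), A_72_P223217 (-0.14), A_72_P729383 (0.12) and O4777 (0.13) changed sign with the column as deposited, none called. Signs also changed for A_72_P682906 (-0.0095) with normexp and quantile normalisation and for CUST_232_PI427286967 with normexp (-0.0595), the 75th percentile (-0.0047) and the rebuilt pig left out (-0.0060). O4777 was at 0.0033 without replicate 7 of the low RFI pigs on LF, an alternative chosen after seeing the data. Within slides, A_72_P649741 was at 0.0108 on slide 1 and A_72_P070231 at 0.13 on slide 2. A_72_P440391, CUST_366 and A_72_P625308 were not called under 4, 4 and 3 of the 13 fits. A_72_P260597 was well above background on 47 of 48 arrays, and the number of arrays limits the precision of every probe.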

Other observations

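Some other class I heavy chain names on the array were looked up after the results were known, and their line differences were tested in limma, where 2.77% of all spots were called. SLA-5 was at -1.06 ± 0.24 for A_72_P414498 (adjusted P-value 0.00545) and -0.25 ± 0.09 for A_72_P441848 (0.163). Spots annotated with human class I names were at -0.48 ± 0.11 for HLA-B (0.00388), -0.31 ± 0.08 for HLA-H (0.0161) and -0.22 ± 0.08 for HLA-F (0.160), and the HLA-E spot O10747 was at 0.96 ± 0.38 (0.212). Which pig gene those spots measure was not tested, and the HLA-F spot shares at least 25 bases in a row with CUST_174 of SLA-1.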
